A study of Mus musculus with 8 samples.

Results

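Keratins are the intermediate filament proteins of epithelial cells. The keratin gene family was taken as every gene symbol that begins with Krt and continues with digits only. This left out symbols marked as pseudogenes, keratin-associated proteins and lettered symbols such as Krt6a. Krt74 fits the pattern and stayed in, although the GENCODE annotation lists it as a transcribed pseudogene. The family held 47 of the 23393 genes in the table, 26 of the acidic type I and 21 of the basic type II. Of the type I genes 25 lie on chromosome 11 and Krt18 lies on chromosome 15, and all 21 type II genes lie on chromosome 15 of GRCm38.

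Keratin filaments form only when a type I protein pairs with a type II protein. Simple, single-layered epithelia such as stomach glands and gut lining use Krt8 with Krt18, Krt19 or Krt20. Stratified epithelia use Krt5 with Krt14 in the basal layer and add Krt1 with Krt10 where they cornify, or Krt4 with Krt13 in the oesophagus and mouth, while a further set is built into hair shafts and their sheaths. In the mouse the forestomach is lined by stratified squamous epithelium, and the hindstomach, intestine and colon by columnar epithelium.

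Poly(A) RNA was sequenced from epithelium of E16.5 mouse embryos, with 2 libraries each of forestomach, hindstomach, colon and proximal small intestine. The labels give no treatment, and their protocol names ShhCre;R26YFP/+ embryos, in which Cre expressed from Shh switches on YFP in gut epithelium, for epithelium collected at this stage. The forestomach was cut away at the squamous-glandular border, treated with Dispase and peeled by hand. Hindstomach epithelium was shaken off in 10 mM EDTA, and colon and intestine epithelium in 5 mM EDTA. Tissue and isolation therefore cannot be told apart for the forestomach or the hindstomach, while colon and intestine were isolated alike. The labels do not say whether libraries of a tissue came from separate embryos or how many embryos were pooled, and p-values therefore cover the spread of these libraries alone. In bulk samples, fewer cells of a type and less RNA per cell cannot be told apart either.

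The library labelled forestomach replicate 1 stood apart. The 10 glandular stomach markers summed to 164702 FPKM, the deposited unit of length-normalized fragments, in it and to 2373 in the other forestomach library. In the hindstomach they summed to 24955 and 31297 FPKM. Different genes carried these sums. Forestomach replicate 1 was led by Pgc (97970), Gkn2 (35988) and Gkn1 (27487). Cym led forestomach replicate 2 (2310) and hindstomach replicates 1 (23524) and 2 (29459), but reached only 8.49 in forestomach replicate 1. Of the 10, Cym alone was lower in forestomach replicate 1 than in replicate 2. Cym, Gkn3 and Cldn18 were lower there than in both hindstomach libraries, and the other markers were higher. The 10 mesenchyme and smooth muscle markers summed to 3441 and 29.7 FPKM in forestomach replicates 1 and 2, against 65.3 to 1332 in the other 6 libraries. The 8 squamous markers summed to 930 and 10049 FPKM in the forestomach, against 0.638 to 19.5 in the other 6, with none of them at 0 in either forestomach library. The 10 most abundant genes outside the family held 52.5% of summed FPKM in forestomach replicate 1 and 6.27% to 14.7% in the other 7 libraries. Their part in the keratin values was not tested, and the tests on the forestomach are given with all libraries and without each forestomach library. A fit without either leaves only 1 forestomach library, so its calls rest on the spread within the other tissues and do not measure forestomach spread. Relative depth estimated from the steps of low values was 0.937 and 0.461 in the forestomach, 0.948 and 0.426 in the hindstomach, 0.474 and 0.852 in the colon and 1 and 0.495 in the intestine, uncertain by a factor of 2.

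The upstream windows of 5 genes are shown as examples of the classes described below. They are Krt5 of the basal layer, Krt10 and Krt13 of the layers above it, Krt20 of simple epithelium and Krt84 of the hair class. Each is the 250 bases before the annotated start, from RefSeq for GRCm38.p6, minus strand, at chr15:101712906-101713155 for Krt5, chr11:99389365-99389614 for Krt10, chr11:100121567-100121816 for Krt13, chr11:99438154-99438403 for Krt20 and chr15:101532821-101533070 for Krt84. Capitals mark TATAAA on either strand (TTTATA on the reverse), ATAAA in the last 50 bases, and TGANTCA; none of the 5 holds GGGCGG.
Krt5: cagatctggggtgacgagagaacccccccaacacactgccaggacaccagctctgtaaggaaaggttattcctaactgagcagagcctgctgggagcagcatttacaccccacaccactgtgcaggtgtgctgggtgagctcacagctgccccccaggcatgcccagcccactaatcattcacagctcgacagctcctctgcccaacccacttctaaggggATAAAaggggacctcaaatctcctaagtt
Krt10: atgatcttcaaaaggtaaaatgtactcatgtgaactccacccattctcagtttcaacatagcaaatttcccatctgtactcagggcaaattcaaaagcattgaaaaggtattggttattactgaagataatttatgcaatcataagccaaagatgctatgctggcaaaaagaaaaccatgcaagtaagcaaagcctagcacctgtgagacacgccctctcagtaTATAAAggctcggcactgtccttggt
Krt13: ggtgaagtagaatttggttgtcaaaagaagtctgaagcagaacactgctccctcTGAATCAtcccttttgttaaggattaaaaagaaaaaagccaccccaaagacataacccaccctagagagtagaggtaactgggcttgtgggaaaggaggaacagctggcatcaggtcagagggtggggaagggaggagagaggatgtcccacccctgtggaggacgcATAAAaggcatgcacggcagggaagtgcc
Krt20: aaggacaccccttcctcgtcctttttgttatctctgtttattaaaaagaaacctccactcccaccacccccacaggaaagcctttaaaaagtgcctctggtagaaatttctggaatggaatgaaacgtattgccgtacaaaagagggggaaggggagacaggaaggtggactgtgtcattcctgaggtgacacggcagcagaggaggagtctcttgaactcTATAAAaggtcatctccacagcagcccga
Krt84: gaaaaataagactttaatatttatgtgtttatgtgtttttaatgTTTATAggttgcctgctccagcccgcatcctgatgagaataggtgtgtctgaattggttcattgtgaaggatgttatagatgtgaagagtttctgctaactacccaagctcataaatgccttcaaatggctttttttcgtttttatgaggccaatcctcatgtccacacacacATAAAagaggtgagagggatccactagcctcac

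Windows were matched for 34 of the 47 members, 35 windows in all because Krt13 has a pair, and 5 motif searches were run on them. The windows of Krt222, Krt35, Krt15, Krt19, Krt16, Krt17, Krt80, Krt83, Krt81, Krt86, Krt74, Krt1 and Krt4 were not used here. TATAAA, the letters of a TATA box, stood on the gene's own strand in the last 50 bases of 14 of 35 keratin windows (40.0%), against 2.63% of all 32851 RefSeq windows of the same length. By class it was in 6 of 8 hair sheath, 4 of 8 hair shaft, 3 of 11 suprabasal, 1 of 4 simple and 0 of 2 basal windows. Some RefSeq starts lay inside the gene as GENCODE, another annotation, draws it. The distance was 1518 bases for Krt14, 1360 for Krt7, 989 for the second Krt13 window and 140 for Krt8. Those windows do not end at the GENCODE start, so the class counts are not counts of promoters alone. Searched on either strand over the whole 250 bases, TATAAA was in 16 of 35 keratin windows (45.7%) and 12.4% of all windows. The shorter ATAAA, which every TATAAA contains, was added to the search only after these windows had been read and found to share it, so its counts are inflated by that choice: it was in the last 50 bases of 22 of 35 keratin windows (62.9%) and 6.57% of all. GGGCGG on either strand, the core of the Sp1 motif, was in 2 of 35 (5.71%) and 32.7% of all windows. TGANTCA, a palindrome and a looser form of the AP-1 motif that allows any middle base, was in 2 of 35 (5.71%), both of Krt13, and 6.75% of all. The match was TGAATCA in the printed Krt13 window and TGACTCA in the second one. The clustered members share ancestry, so their windows are not independent, and a match describes letters, not a bound site.

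Of the 47 members, 17 averaged at least 10 FPKM in at least 1 tissue, 21 stayed under 1 FPKM in all 8 libraries and Krt40 was listed at 0 in all. Members at 1 FPKM or more numbered 19 and 25 in the forestomach, 15 and 14 in the hindstomach, 13 and 12 in the colon and 7 and 7 in the intestine. Keratins made up 0.764% and 9.80% of summed FPKM in forestomach replicates 1 and 2. The share was 0.884% and 0.985% in the hindstomach, 0.644% and 0.705% in the colon, and 0.365% and 0.389% in the intestine. Apart from the high forestomach replicate 2, the shares were under 1% and lowest in the intestine. Without the 10 most abundant other genes of each library they were 1.61% and 11.05% in the forestomach and 0.413% to 1.15% in the columnar libraries, which put forestomach replicate 1 above rather than below the hindstomach.

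Simple, suprabasal and basal shares set the forestomach apart from the columnar tissues. Colon and intestine overlapped in the simple and suprabasal shares, but not in the basal, hair shaft, hair sheath and remaining shares. The remaining group was the largest of these, at 0.373% and 0.255% in the colon and 1.12% and 0.838% in the intestine. Simple keratins held 69.1% and 2.86% of summed keratin FPKM in forestomach replicates 1 and 2, against 90.04% and 97.4% in the hindstomach, 98.8% and 98.7% in the colon and 98.5% and 98.8% in the intestine. Suprabasal and other stratified keratins held 19.6% and 81.9% in the forestomach and 0.225% to 5.29% in the 6 columnar libraries. Basal keratins held 9.22% and 14.03% in the forestomach and 0.0567% to 2.58% in the columnar libraries. The leading member was Krt13 in forestomach replicate 2, with 41.7% of the keratin sum, and Krt8 in each of the other 7.

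**Figure D1:**
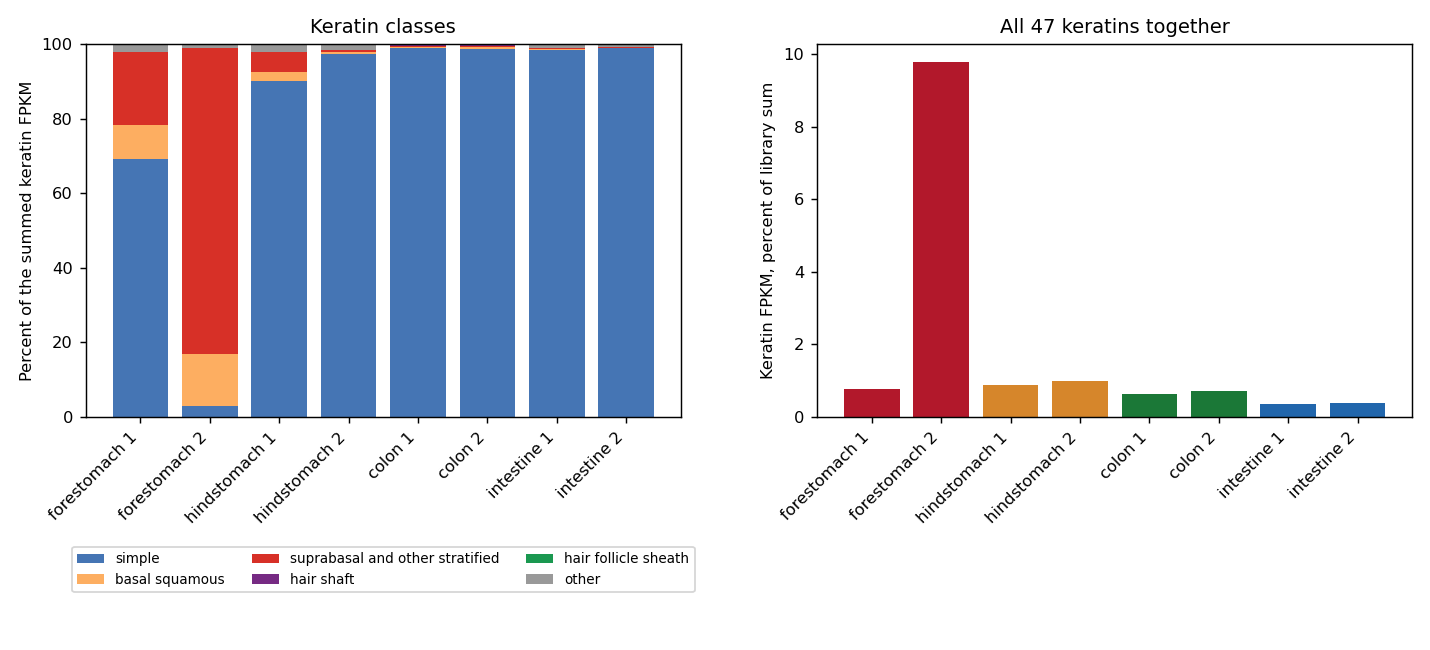
Share of summed keratin FPKM held by each class in each of the 8 libraries, in percent, with the share of all summed FPKM held by the 47 members at the right. Simple keratins fill at least 90.04% of all 6 columnar libraries, 69.1% of forestomach replicate 1 and 2.86% of forestomach replicate 2.

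Summed type II over summed type I FPKM stayed within 0.744 to 1.05 in the 8 libraries while the keratin sum itself ranged over 1275 to 37086 FPKM. The ratio was 0.744 and 0.805 in the forestomach, 0.894 and 0.878 in the hindstomach, 1.05 and 1.05 in the colon and 1.02 and 0.998 in the intestine. Adding the lettered Krt6a, Krt6b, Krt33a and Krt33b gave 0.749 to 1.05. Single pairs were less even. Krt8 over Krt18, both simple, was 2.72 and 8.57 in the forestomach, 1.90 and 2.16 in the hindstomach, 4.00 and 3.44 in the colon and 2.78 and 3.21 in the intestine. Krt4 over Krt13 was 0.503 to 0.854 in all 8 libraries, although Krt13 itself ranged over 0.0746 to 15454 FPKM. Krt5 over Krt14 was 0.861 and 12.2 in the 2 forestomach libraries, and Krt1 over Krt10 was 0.831 and 0.193. These ratios compare per-length levels within a library and carry no test.

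**Figure D2:**
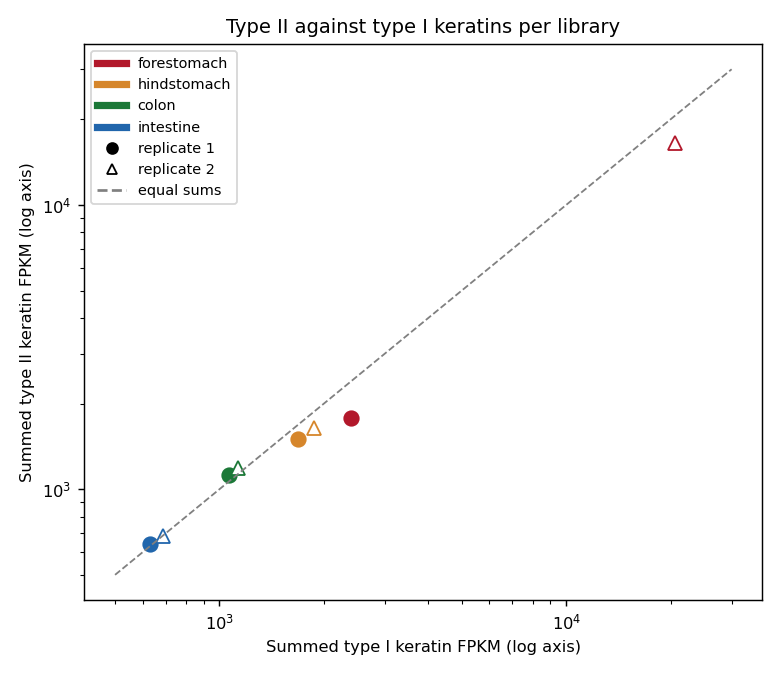
Type II against type I keratins, summed FPKM per library, on log axes. All 8 libraries lie near the line of equal sums, with ratios of 0.744 to 1.05.

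Of the 20 members that reached 1 FPKM in 2 or more libraries, 11 were higher in the forestomach than in the mean of the 3 columnar tissues and 0 lower, at an adjusted p under 0.05 and at least 2-fold (limma, Benjamini-Hochberg over 12894 genes). Among all genes tested 13.5% were called and 3.80% were higher. The median log2 difference was 3.57 over the 20 members and -0.32 over all genes tested. Another 27 members did not pass the filter, and Krt12 and Krt16 passed only through the forestomach. Krt16 is among the 11 and had to differ to be tested; with no filter, when every gene is tested, its adjusted p was 0.0186 (limma). Without forestomach replicate 1, 13 of 18 tested members were higher and 3 lower, against 23.5% of all genes called. Without forestomach replicate 2, 11 were higher and 1 lower, against 26.5% called. Both forestomach libraries exceeded all 6 columnar ones for 13 of the 20 members, a pattern met by 5.17% of all genes tested. Krt12 and Krt16 are among the 13 and had to show this pattern to be tested.

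The basal keratins gave 3 members called higher of 4, where 3.80% of all genes tested were higher. Krt14, the type I partner of Krt5, had 193 and 212 FPKM in the forestomach, 1.32 and 0.364 in the hindstomach, 1.07 and 1.75 in the colon and 0.174 and 0.0665 in the intestine. The forestomach libraries were alike and stood above every other. Its log2 difference on the log2(FPKM + 1) scale was 6.92 ± 0.25 (SE, adjusted p = 7.03e-05, limma), 6.98 without forestomach replicate 1 and 6.85 without replicate 2. Krt14 shares 14.4% of its 50-base stretches with Krt16 and Krt17, so reads could be split among them.

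Krt5 had 167 and 2574 FPKM in the forestomach, 19.5 and 0.823 in the hindstomach, 0.303 and 0.0886 in the colon and 0.0679 and 0.0534 in the intestine. The groups did not overlap, with a log2 difference of 8.38 ± 1.24 (adjusted p = 0.00849, limma), 10.35 without forestomach replicate 1 and 6.41 without replicate 2. Krt17, a keratin of skin appendages that is induced by stress, had 13.2 and 40.0 FPKM in the forestomach against 0.118 to 3.24 in the columnar libraries, with a log2 difference of 3.58 ± 0.48 (adjusted p = 0.00629, limma), 4.35 without replicate 1 and 2.82 without replicate 2. Krt15, a basal type I keratin, did not pass: it had 11.1 and 2376 FPKM in the forestomach, 59.5 and 18.0 in the hindstomach, 3.47 and 6.32 in the colon and 0.874 and 0.539 in the intestine. Its forestomach values lay on both sides of the hindstomach ones. The log2 difference was 4.62 ± 1.84 (adjusted p = 0.123, limma), 8.43 without forestomach replicate 1 and 0.81 without replicate 2.

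**Figure D3:**
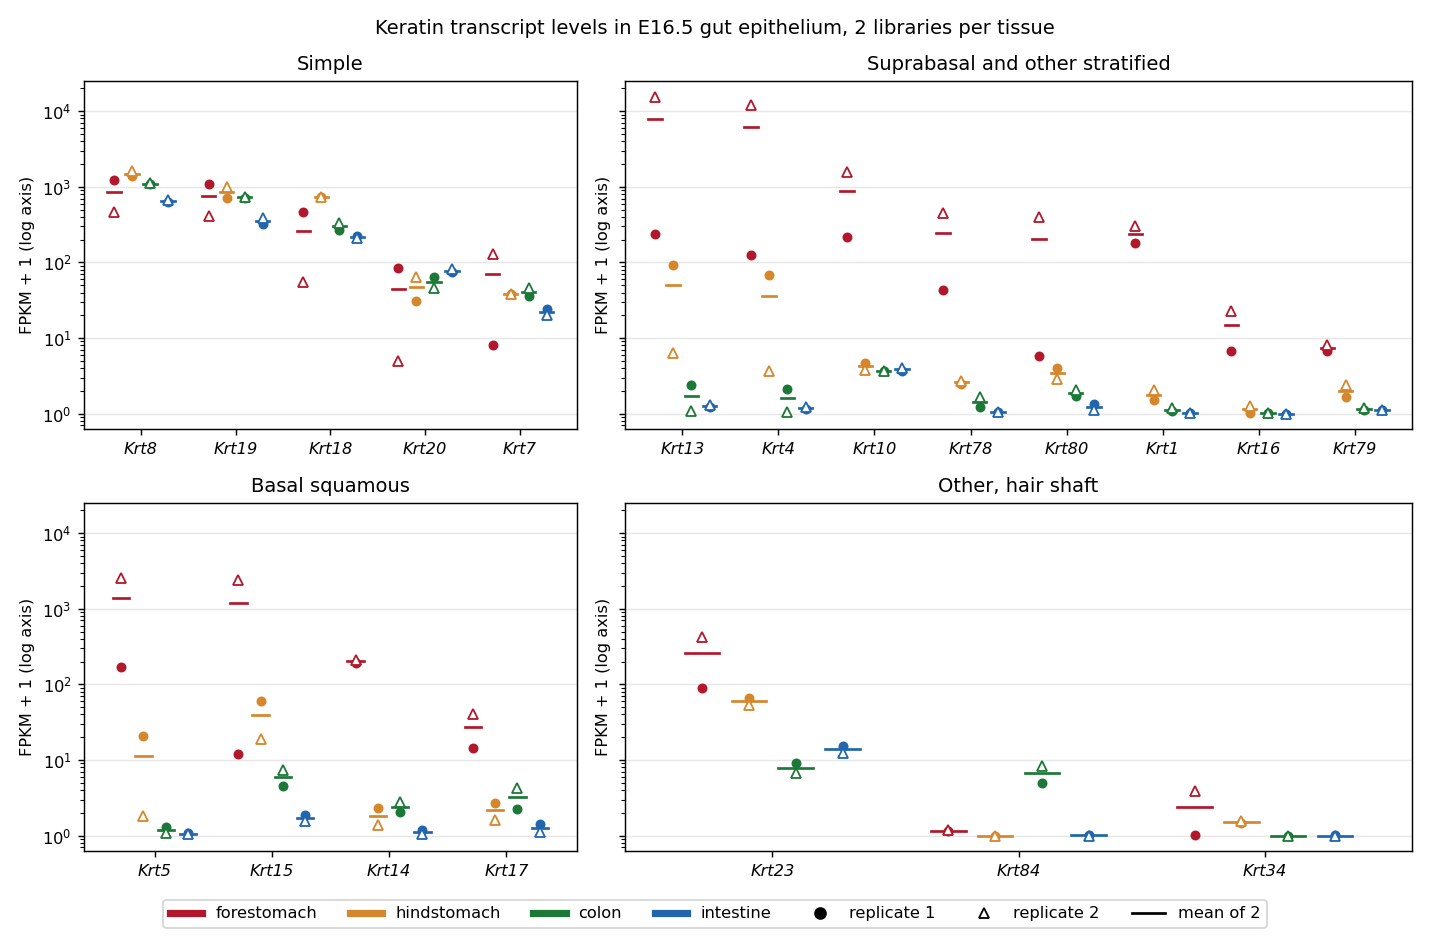
FPKM + 1 of the members averaging at least 10 FPKM in a tissue or called in a comparison, and of Krt34, by library, with bars at the mean of 2, on a log scale. Krt14 and Krt1 are close in both forestomach libraries, while Krt13, Krt4 and Krt15 lie 66.3-fold, 97.1-fold and 214-fold higher in replicate 2 than in replicate 1.

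The suprabasal and other stratified keratins gave 7 members called higher of the 9 that passed the filter, of 14 in the class. Among all genes tested 3.80% were higher. Krt16 among the 7, and Krt12 among the 9, passed the filter only through the forestomach. Krt13, the type I keratin of internal stratified epithelia (chromosome 11, 100117327 to 100121566, GRCm38), had 233 and 15454 FPKM in the forestomach, 91.8 and 5.33 in the hindstomach, 1.38 and 0.0746 in the colon and 0.222 and 0.321 in the intestine. It was the most abundant of all genes in forestomach replicate 2 and ranked 173 in replicate 1. Its type II partner Krt4 (chromosome 15, 101918535 to 101924735) had 126 and 12204 FPKM in the forestomach, 67.3 and 2.68 in the hindstomach, 1.12 and 0.0637 in the colon and 0.163 and 0.211 in the intestine. The log2 differences were 9.02 ± 1.70 for Krt13 (adjusted p = 0.0167, limma) and 8.67 ± 1.85 for Krt4 (adjusted p = 0.0241, limma). Without forestomach replicate 1 they were 12.04 and 11.97, and without replicate 2 they were 5.996 and 5.38.

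Krt1 and Krt10, the pair of cornifying layers, were high in both forestomach libraries. Krt1 had 179 and 299 FPKM in the forestomach and at most 1.05 in the columnar libraries, with a log2 difference of 7.53 ± 0.25 (adjusted p = 4.81e-05, limma), 7.89 without replicate 1 and 7.16 without replicate 2. Krt10 had 216 and 1548 FPKM in the forestomach, with a log2 difference of 7.22 ± 0.68 (adjusted p = 0.00202, limma), 8.63 without replicate 1 and 5.80 without replicate 2. In the columnar libraries Krt10 kept a low level of 3.68 and 2.77 FPKM in the hindstomach, 2.70 and 2.65 in the colon and 2.72 and 2.98 in the intestine, where Krt1 was between 0.0137 and 1.05. An antisense gene, Gm11940, covers 6.91% of Krt10 exonic bases, and the strand setting of the counting is not given in the sources used here.

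Krt78, a type II keratin, had 42.4 and 449 FPKM in the forestomach and 0.0361 to 1.68 in the columnar libraries, with a log2 difference of 6.49 ± 0.81 (adjusted p = 0.00486, limma), 8.18 without replicate 1 and 4.80 without replicate 2. Krt16, which pairs with Krt6 in wounded and fast-growing epidermis, had 5.68 and 21.6 FPKM in the forestomach against 0 to 0.272, and could not be tested without either forestomach library. It shares 37.6% of its 50-base stretches with Gm11597, Krt14 and Krt17. Krt79 had 5.69 and 7.18 FPKM in the forestomach, 0.636 and 1.36 in the hindstomach and 0.102 to 0.176 in the colon and intestine (log2 difference 2.45 ± 0.21, adjusted p = 0.00139, limma), with 2.59 and 2.30 without replicate 1 and without replicate 2. Krt80 had 4.80 and 402 FPKM in the forestomach against 0.122 to 3.02, and did not pass with both libraries (log2 difference 4.60 ± 1.45, adjusted p = 0.0708, limma). The Krt80 difference was 7.66 without replicate 1 and 1.54 without replicate 2. Krt12, a corneal keratin, had 1.33 and 1.46 FPKM in the forestomach and 0.0758 to 0.701 elsewhere, a difference under 2-fold on this scale, and 54.4% of its exonic bases overlap the antisense A830036E02Rik.

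Krt23, a type I keratin of the remaining group, followed the stomach as a whole. It had 88.8 and 423 FPKM in the forestomach, 65.7 and 52.6 in the hindstomach, 8.06 and 5.80 in the colon and 14.2 and 11.4 in the intestine. Both forestomach libraries stood above the hindstomach, and both hindstomach libraries above the intestine and colon. The difference from the columnar mean was 3.39 ± 0.55 on the log2 scale (adjusted p = 0.0112, limma), 4.51 without forestomach replicate 1 and 2.27 without replicate 2.

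**Figure D4:**
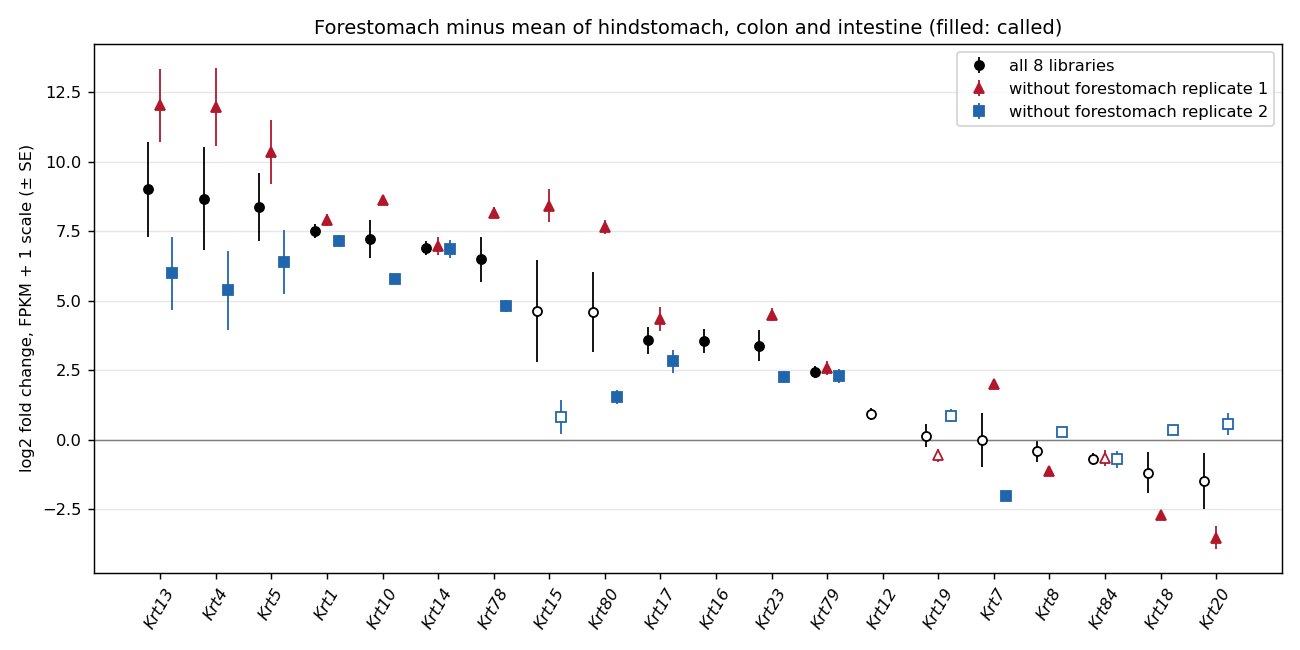
Log2 difference of forestomach minus columnar mean for the tested members, on log2(FPKM + 1), with all 8 libraries and without either forestomach library. Filled points were called and bars are SE. Krt14, Krt1 and Krt79 move by less than 1 between the fits, Krt13 lies at 12.04 without replicate 1 and 5.996 without replicate 2, and all 5 simple keratins change sign between those fits.

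No simple keratin passed the test between forestomach and columnar mean with all 8 libraries. Krt8 (chromosome 15, 101996698 to 102004482) had 1245 and 468 FPKM in the forestomach, 1374 and 1601 in the hindstomach, 1076 and 1130.0 in the colon and 619 and 665 in the intestine. Krt8 shares 26.9% of its 50-base stretches with Krt8-ps, so reads could be split between them. Krt18, its type I partner, had 458 and 54.7 FPKM in the forestomach, 722 and 742 in the hindstomach, 269 and 329 in the colon and 222 and 207 in the intestine. Krt20, a keratin of differentiated gut cells, had 83.4 and 4.00 FPKM in the forestomach, 29.6 and 63.7 in the hindstomach, 63.5 and 44.6 in the colon and 73.0 and 80.6 in the intestine. All 3 were lower in forestomach replicate 2 than in every other library, while their levels in replicate 1 lay within or above the columnar range.

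Log2 differences were -0.41 ± 0.39 for Krt8, -1.18 ± 0.73 for Krt18 and -1.48 ± 1.00 for Krt20 (adjusted p = 0.473, 0.283 and 0.323, limma). Without forestomach replicate 1 they were -1.12, -2.70 and -3.52, and without replicate 2 they were 0.29, 0.34 and 0.56. Krt19, a type I keratin of ducts and gut lining, had 1086 and 405 FPKM in the forestomach, 706 and 990.5 in the hindstomach, 713 and 738 in the colon and 318 and 382 in the intestine (log2 difference 0.15 ± 0.40, adjusted p = 0.798, limma; -0.55 without replicate 1 and 0.86 without replicate 2). Krt7, a type II keratin of ducts, had 6.98 and 129.9 FPKM in the forestomach, 37.3 and 37.4 in the hindstomach, 35.5 and 44.8 in the colon and 22.9 and 19.0 in the intestine. Its forestomach libraries lay below and above all others, so that its log2 difference changed sign, at 2.01 without replicate 1 and -2.03 without replicate 2.

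Between forestomach and hindstomach alone, 7 of 20 members were higher and 0 lower, where 5.59% of all genes were called and 1.33% were higher. The 7 were Krt1, Krt10, Krt14, Krt17, Krt78, Krt79 and Krt16, and with no filter Krt16 did not pass (adjusted p = 0.0586, limma). The differences of Krt5 (6.75 ± 1.52), Krt13 (6.29 ± 2.09) and Krt4 (6.29 ± 2.26) lay in the range of the 7 but did not pass (adjusted p = 0.0576, 0.117 and 0.135, limma). Hindstomach replicate 1 had more of all 3 than replicate 2, and the 8 squamous markers summed to 19.5 and 3.75 FPKM in the same libraries; their part was not tested. Without forestomach replicate 1, 13 members were higher and 4 lower (Krt8, Krt18, Krt19 and Krt20), against 20.9% of all genes called. Without forestomach replicate 2, 7 were higher and Krt7 was lower, against 24.7%.

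Between hindstomach and intestine 0 of 20 members passed (limma), against 5.03% of all genes (2.47% higher), and 5 had an unadjusted p under 0.05. The spread in this fit was pooled over all tissues, the forestomach included. Its SE and p-values therefore do not measure the spread of the hindstomach and intestine libraries alone. Both hindstomach libraries exceeded both intestine libraries for 17 of the 20, a pattern met by 53.5% of all genes tested. The log2 differences were 1.21 ± 0.48 for Krt8, 1.77 ± 0.90 for Krt18, 1.26 ± 0.49 for Krt19 and 2.12 ± 0.68 for Krt23 (adjusted p = 0.181, 0.276, 0.176 and 0.126, limma). When either forestomach library was left out, 8 members passed as higher: Krt8, Krt13, Krt15, Krt18, Krt19, Krt23, Krt78 and Krt80. Background was then 17.4% without replicate 1 and 17.1% without replicate 2. The mesothelium also uses simple keratins. Its 5 markers summed to 70.6 and 85.9 FPKM in the hindstomach and 32.3 and 29.5 in the intestine, none at 0. Of these markers, Msln had 43.4 and 56.0 FPKM in the hindstomach and 4.52 and 2.80 in the intestine. Upk3b alone of the 5 was lower in the hindstomach, at 20.0 and 23.1 against 26.2 and 25.9 FPKM. The part of the mesothelium was not tested.

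Hair keratins were low in every tissue. Of 21 hair shaft and sheath members, 20 were under 1 FPKM in all 6 columnar libraries and 14 under 0.2 FPKM in all 8. The exception was Krt84, a type II keratin of the hair class (chromosome 15, 101525026 to 101532820), whose window is printed above. Krt84 had 4.02 and 7.32 FPKM in the colon and 0.0129 and 0 in the intestine, and at most 0.181 in any other library. The difference was 2.68 ± 0.28 on the log2(FPKM + 1) scale (adjusted p = 0.0268, limma), the only keratin called in colon minus intestine, where 0.380% of all genes were. Krt84 passed the filter only through the colon and had to be high there to be tested. With no filter, when every gene is tested, its adjusted p was 0.0425 (limma). Krt14 was the other 1 of the 20 members with an unadjusted p under 0.05. The Krt84 call ended when either hindstomach or either intestine library was left out (adjusted p = 0.139 to 0.380, limma), with only the tissues compared (0.0629) and with the replicate block (0.112). Over all alternatives that gave a value its adjusted p was 0.0138 to 0.380 (limma). With a filter of 5 FPKM, or without either colon library, Krt84 was not tested.

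The next highest hair members were Krt34 and Krt35, both at 1 FPKM or more in forestomach replicate 2 alone. Krt34 had 0.00548 and 2.84 FPKM in the forestomach and 0 to 0.578 elsewhere, and Krt35 had 0 and 1.86 against at most 0.0526. Krt31, Krt34, Krt35, Krt36, Krt75 and Krt76 reached 1 FPKM in exactly 1 library, forestomach replicate 2 for all 6. Krt34 and Krt31 share 33.1% and 28.1% of their 50-base stretches with other hair keratins. Of 53 keratin-associated protein genes, the matrix of the hair shaft, 36 were listed at 0 in every library and 50 stayed under 1 FPKM. Both colon libraries exceeded both intestine libraries for 15 of the 20 tested members, a pattern met by 57.6% of all genes. Krt84 is among the 15 and had to show this pattern to be tested.

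**Figure D5:**
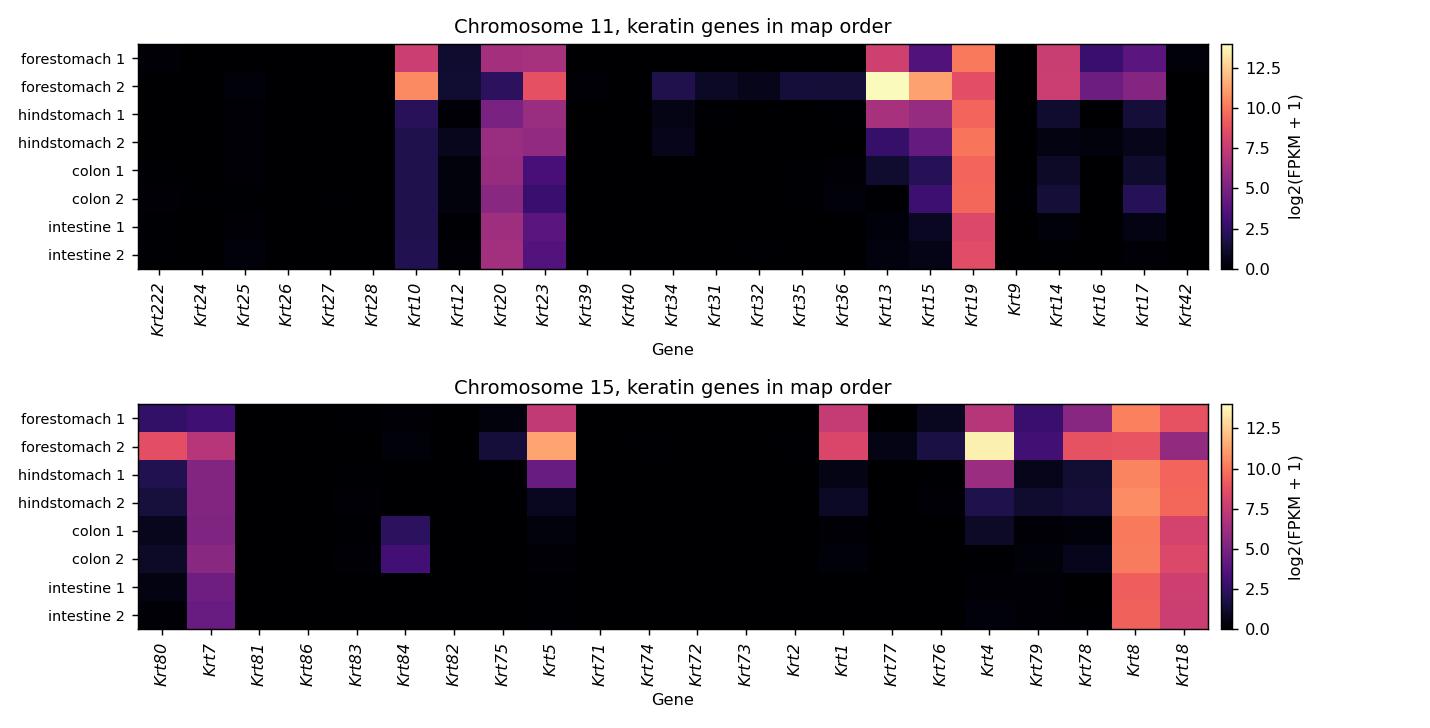
Level of each member along the type I cluster of chromosome 11 and the type II cluster of chromosome 15, in gene order, for the 8 libraries, as colour on a log2(FPKM + 1) scale. Krt84 is visible in the 2 colon libraries at 4.02 and 7.32 FPKM, and Krt13 and Krt4 are brightest in forestomach replicate 2.

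Genes that work with keratins were read from lists of partners, chosen like the members with earlier results known. Of 12 tested plaque and linker genes that tie keratins to desmosomes, 2 were higher in forestomach than in the columnar mean and 0 lower, where 13.5% of all genes were called and 3.80% were higher. Their median log2 difference was 1.35, against -0.32 over all genes. Without forestomach replicate 1, 9 of the 12 were higher and Pkp2 was lower (median 2.47, with 23.5% of all genes called), and without replicate 2, 3 were higher (median 0.18, with 26.5% called). Pkp1, a desmosomal plaque protein, had 9.83 and 323 FPKM in the forestomach, against 0.00822 to 2.45 in the columnar libraries. Its log2 difference was 5.44 (adjusted p = 0.0278, limma), 7.89 without replicate 1 and 2.99 without replicate 2. Evpl, an envelope plakin, had 17.1 and 231 FPKM in the forestomach against 2.11 to 9.02 (3.53, adjusted p = 0.0376, limma), with 5.37 without replicate 1 and 1.69 without replicate 2.

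Against the same background of 13.5% called, 2 of 4 tested filament-bundling and cornified genes (Lor and Krtdap), 2 of 6 regulators of stratified keratins (Klf4 and Trp63) and 1 of 12 other intermediate filament genes (Lmna) were higher. Klf4 had 212 and 306 FPKM in the forestomach against 11.9 to 81.1 (2.81, adjusted p = 0.00173, limma), with 3.07 without replicate 1 and 2.54 without replicate 2. Lmna, of the nuclear lamina, differed by 1.58 (adjusted p = 0.0218, limma), 2.15 without replicate 1 and 1.01 without replicate 2. Trp63, the master regulator of stratified epithelium, had 2.85 and 53.0 FPKM in the forestomach against at most 0.717. Krt6b, a lettered type II keratin, had 4.73 and 13.1 FPKM in the forestomach against at most 0.0783. Trp63 and Krt6b passed the filter only through the forestomach, so their calls are no support for a difference. Krt5 shares 8.52% of its 50-base stretches with other genes, Krt6a and Krt6b among them.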

How the data were processed

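The authors deposited FPKM, a fragment count scaled by transcript length and sequenced total. The submitters' processing notes name STAR 2.4.2a and the build mm10 (GRCm38). How FPKM was computed, with which gene models and strand option, is not given in the sources used here. FPKM falls where a few genes hold a large share of a library. Of the table's columns, 4 could be matched to none of the samples and were left out.

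Values were analysed as log2(FPKM + 1) over the 12894 genes that reached 1 FPKM in 2 or more libraries, which understates the change of low genes. Using limma 3.58.1 under R 4.3.3, a model of 4 tissue means was fitted to all 8 libraries, with a trend in eBayes. Every comparison in this main fit used a spread pooled over all tissues, also where the forestomach was not compared. Calls required an adjusted p (Benjamini-Hochberg) under 0.05 with a change of 2-fold or more. The fit was tried on simulated data for forestomach minus hindstomach alone. The simulated spread was drawn from the hindstomach, intestine and colon, so this trial does not cover the spread between the forestomach libraries. Read depth is unknown beyond the relative steps, so no counting interval was derived.

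The members, classes and partner lists were chosen with earlier results of these data known. Every library's value was given for members with a tissue mean of at least 10 FPKM or a call; of the other lists, up to 4 called genes per comparison were named. Of the 5 motif searches, which were in no written plan, ATAAA was added after the windows had been read. The fit was repeated with changed pseudocount, low-value filter, scaling, variance model and fold rule, on the compared tissues alone, with replicate number as a block, and leaving out 1 library at a time.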

Additional observations from a re-analysis of the deposited data

How the results depend on the processing

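Calls in forestomach minus columnar mean stayed within 1.5 times of 11 under every alternative, and were 9 to 16 with a library left out. In forestomach minus hindstomach the count of 7 was 4 with no filter, 2 with only the tissues compared and 2 to 17 with a library left out. In hindstomach minus intestine the count of 0 was 8 with only the tissues compared, 1 at a pseudocount of 0.1 and 0 to 8 with a library left out. In colon minus intestine the count of 1 was 0 with a filter of 5 FPKM, 0 with only the tissues compared, 0 with the replicate block and 0 to 1 with a library left out. Without the 10 most abundant other genes, keratin shares were 6.33% in the forestomach (5.28% otherwise), 1.09% in the hindstomach (0.934% otherwise), 0.731% in the colon (0.675%) and 0.434% in the intestine (0.377%). With a library left out they were 0.764% to 9.80% in the forestomach, 0.884% to 0.985% in the hindstomach, 0.644% to 0.705% in the colon and 0.365% to 0.389% in the intestine. Without forestomach replicate 1, forestomach minus columnar mean was -1.12 for Krt8, -2.70 for Krt18 and -3.52 for Krt20. Without forestomach replicate 2 it turned to 0.29 for Krt8, 0.34 for Krt18 and 0.56 for Krt20; the cause was not tested.

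The median log2 difference of all genes was -0.32 in forestomach minus columnar mean and -0.39 in forestomach minus hindstomach, and -0.01 and -0.02 with median-of-ratios scaling. The labels do not say whether libraries with the same replicate number belong together. Correlations of same-numbered deviations between tissues ran from -0.58 to 0.27, and 4 of 6 were negative. With 1 difference per tissue, these values cannot show whether embryos were shared. With the replicate block the counts were 11 in forestomach minus columnar mean, 6 in forestomach minus hindstomach, 0 in hindstomach minus intestine and 0 in colon minus intestine. The 27 members that did not pass the filter were not tested, and the depth behind their low values is unknown.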
